A study of Mus musculus with 9 samples.

Results

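Ionotropic and metabotropic glutamate receptors and the scaffold proteins that hold them at the synapse were followed in layer IV of the mouse barrel cortex with and without GAP-43, a membrane phosphoprotein of growing axons. Members were all probe sets whose single gene symbol on the array's annotation named an AMPA (Gria), kainate (Grik), NMDA (Grin) or metabotropic (Grm) receptor, a Dlg scaffold, a Dlgap, Homer or Shank protein or a neuroligin (Nlgn), each with a number. Grin1, Grin2b and Grm5 were left out by the rule. This gave 34 probe sets of 26 genes, out of 22626 probe sets that are not controls. All mice were C57BL/6 and 5 days old. Their Gap43 genotype was wild type, called WT here, heterozygous (HZ) or knockout (KO), and each genotype had 3 mice with 1 array each. The labels do not say which part of Gap43 was removed, and no other allele, transgene or treatment is given. Layer IV was cut out by laser microdissection, and its RNA was amplified in 2 cycles of cDNA synthesis before hybridization.

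Glutamate carries most excitatory signals in the cortex. AMPA and kainate receptors open fast cation channels, NMDA receptors admit calcium when glutamate and depolarization coincide, and metabotropic receptors act through G proteins. Beneath the membrane, Dlg proteins of the membrane-associated guanylate kinase family bind receptor tails, Dlgap proteins link them to Shank, and Homer joins Shank to metabotropic receptors. Neuroligins reach across the cleft to presynaptic neurexins. In the barrel field these synapses receive the thalamic axons that bring whisker input, and the first postnatal week is when thalamic axons sort into barrels and their synapses mature.

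Over the 13576 probe sets tested, arrays correlated with a median r of 0.9632 within a genotype and 0.9635 between genotypes, so that no genotype stood apart. Gap43, read by 1 probe set, had signals of 4294 to 7089 in WT, 4389 to 5039 in HZ and 979 to 1930 in KO. It fell by 1.95 on the log2 scale in KO against WT (limma adjusted p = 0.0173; 2-sided exact permutation p = 0.1, the smallest that 3 arrays against 3 can give), and it fell by 1.82 in KO against HZ (limma adjusted p = 0.0362), and whether the probe set lies in the deleted part is not known from the labels. With 1 array left out its log2 difference stayed between -2.20 and -1.72 against WT, but limma's adjusted p was above 0.05 without WT 1, WT 2, HZ 2 or KO 3 (up to 0.0742). Against HZ it stayed between -2.08 and -1.59, with limma's adjusted p above 0.05 without WT 2, any of the 3 HZ arrays, KO 1 or KO 3 (up to 0.174). The layer IV marker Rorb was present, at 530 ± 65.2 (SD, n = 3) in WT, 609 ± 95.5 in HZ and a lower 328 ± 27.4 in KO. The ratio of 3' to 5' signal, averaged over the Actb and Gapdh control probe sets and higher where RNA is broken or amplified copies are short, was 10.1 to 15.5 in WT and 11.2 to 14.5 in KO. HZ 2 stood apart at 26.4, against 9.94 and 10.1 on the other HZ arrays. The summed signal of 4 immature neuron markers (Dcx, Tubb3, Sox4 and Sox11) was 15039 to 16059 in WT, 14606 to 15591 in HZ and 17752 to 17937 in KO. All 4 were above 0 in KO against WT (against 53.7% of all probe sets tested). At an unadjusted limma p below 0.05, 2 were higher (against 4.43%) and 0 lower (against 3.59%). Dcx, the brightest, had means of 10113 in WT and 10479 in KO. The WT and KO means were 3106 and 3915 for Tubb3, 2112 and 2464 for Sox4, and 380 and 973 for Sox11. The summed signal of 9 astrocyte markers was 13867 to 18288 in WT, 13217 to 13911 in HZ and 9471 to 14031 in KO. In KO against WT 1 of 8 tested astrocyte markers was above 0 (against 53.7%), with a median log2 change of -0.38. At an unadjusted limma p below 0.05, 5 of the 8 were lower (against 3.59%), and Slc1a2 was too dim to test. Excitatory and layer IV neuron markers, 6 in number, summed to 4332 to 4963 in WT, 5522 to 5922 in HZ and 4934 to 5866 in KO. In KO against WT 4 of the 6 were above 0 (against 53.7% of all probe sets tested). Of the 6, 1 was higher and 1 lower at an unadjusted limma p below 0.05 (against 4.43% and 3.59%). Summed markers of interneurons, oligodendrocyte lineage, microglia, and endothelial and mural cells overlapped between WT and KO, and of 7 microglial markers Cx3cr1, Aif1, Itgam and C1qa were dim. At an unadjusted limma p below 0.05, 2 of 7 interneuron and 2 of 6 tested oligodendrocyte lineage markers were lower in KO against WT (against 3.59% of all probe sets tested). No tested microglial or endothelial and mural marker was lower at that threshold, and in each of these 4 lists 0 were higher (against 4.43%). Above 0 in KO against WT were 3 of 7 interneuron and 4 of 6 oligodendrocyte lineage markers (against 53.7%). So were 0 of 3 microglial markers, with a median log2 change of -0.23, and 1 of 6 endothelial and mural markers, with a median of -0.05. In bulk tissue, fewer cells of a type and less RNA per cell cannot be told apart.

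Receptor and scaffold families were read to very different extents. Tests were limited to the 60% of probe sets that were brightest on average, and 18 of the 34 members, from 15 genes, were among them. All 6 AMPA receptor probe sets were tested. So were 2 of 4 for kainate receptors, 5 of 9 for Dlg proteins, 1 of 2 for Dlgap, 2 of 5 for Homer, 1 of 2 for neuroligins and the single one for Shank3. The 4 NMDA receptor probe sets among the members (Grin2a, Grin2c, Grin2d and Grin3b) were all too dim, at 21.7 to 113 on every array. So was Grm8, the only metabotropic receptor among the members, at 39.1 to 92.4. Grin1, Grin2b and Grm5 were left out by the rule, so these values do not cover them. A tested member had a mean of at least 153, and the brightest dim one, a Dlg2 probe set, had a mean of 117. A dim probe set does not show that the transcript is missing.

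**Figure D1:**
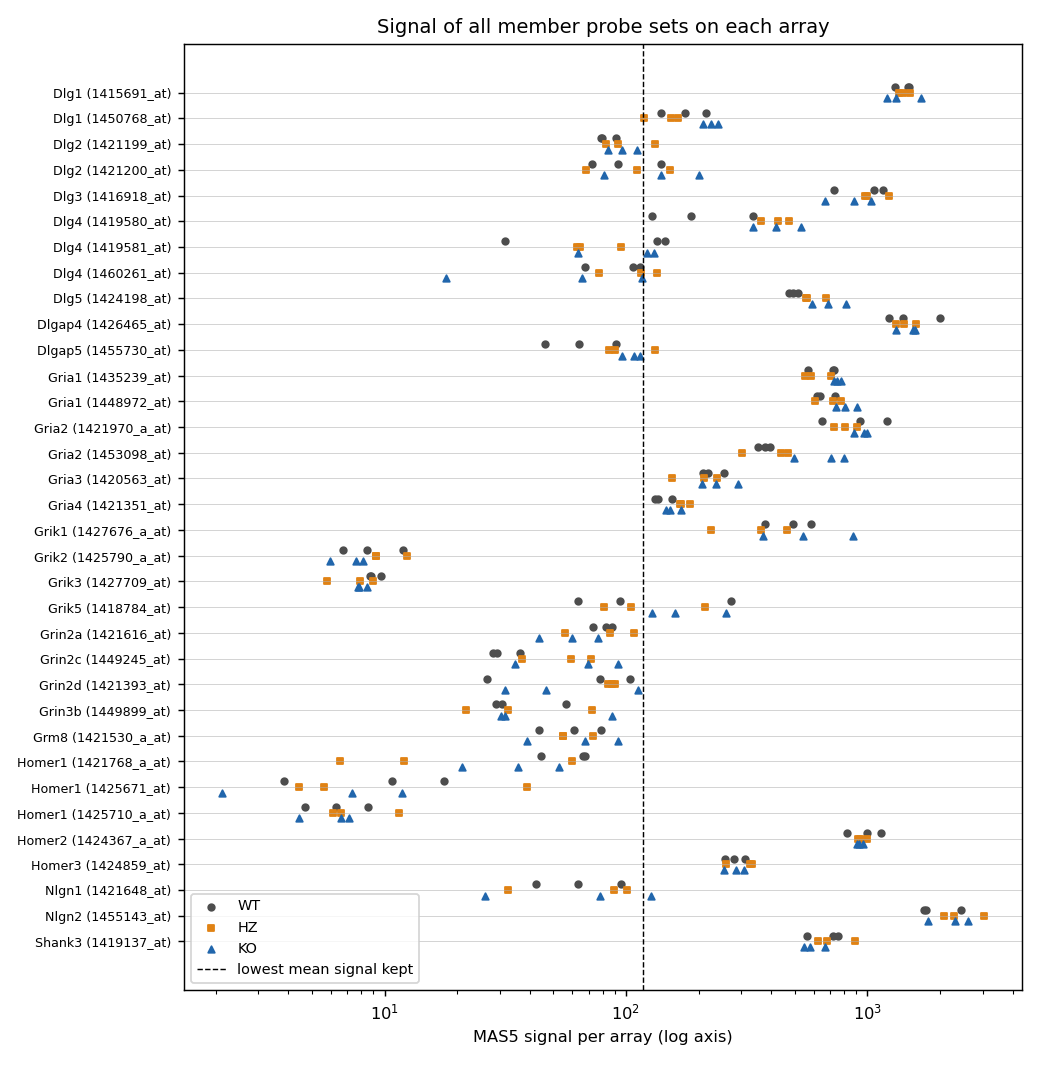
Signal of each of the 34 member probe sets on each of the 9 arrays, on a log axis. Circles stand for WT, squares for HZ and triangles for KO, and the dashed line marks the lowest mean signal of a tested probe set, 118. All arrays of the Grin, Grm8 and Homer1 probe sets lie left of the line, and those of Dlg2 lie on both sides.

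In KO against WT the higher members were the AMPA receptor subunit Gria2 and the scaffold Dlg4 (PSD-95), each on 1 of its probe sets, and Dlg5. At an unadjusted limma p below 0.05, 3 of 18 members were higher (16.7%, against 4.43% of all probe sets tested) and 0 were lower (against 3.59%). With arrays set to 1 median the members' counts were again 3 and 0, while 2.64% of all probe sets were higher and 5.61% lower. Over all 18 the median log2 change was 0.15, from -0.19 to 1.01, against 0.02 over all probe sets tested, and 12 were above 0 (66.7%, against 53.7% of all). The arrays of KO lay wholly above those of WT for 3 members, Gria2, Dlg5 and Gria1 (16.7%, against 7.83% of all), and wholly below for 0 (against 5.83%). Under other scalings fewer members lay wholly above: 2 with arrays set to 1 median (against 5.03% of all) and 2 with quantile normalization (against 6.84%). No member passed after adjustment over all probe sets (limma, smallest adjusted p = 0.460, against 1 probe set, 0.00737% of those tested, which was Gap43). The typical 95% interval of a member reached 0.41 on the log2 scale, or 1.33-fold, to either side.

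The 250 bases before the annotated start are shown for these 3 genes because they are the members with an unadjusted p below 0.05 in KO against WT. Motifs are in capitals and were searched on both strands: the GC box GGGCGG, the NRF-1 site (GCGCA, any 1 base, then GCGC), the CRE TGACGTCA, the E-box CAGCTG and the CCAAT box. Gria2 lies at chr3:80802836-80803085 on the minus strand, Dlg5 at chr14:24245921-24246170 on the minus strand, and Dlg4, at the 1 of its 3 annotated starts that holds a match, at chr11:70023732-70023981 on the plus strand (RefSeq, GRCm38.p6).
Gria2: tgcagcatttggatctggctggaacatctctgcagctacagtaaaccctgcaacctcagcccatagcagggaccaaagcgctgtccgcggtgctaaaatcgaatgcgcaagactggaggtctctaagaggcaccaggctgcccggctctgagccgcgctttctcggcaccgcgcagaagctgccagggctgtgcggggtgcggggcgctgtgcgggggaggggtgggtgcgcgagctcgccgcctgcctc
Dlg4: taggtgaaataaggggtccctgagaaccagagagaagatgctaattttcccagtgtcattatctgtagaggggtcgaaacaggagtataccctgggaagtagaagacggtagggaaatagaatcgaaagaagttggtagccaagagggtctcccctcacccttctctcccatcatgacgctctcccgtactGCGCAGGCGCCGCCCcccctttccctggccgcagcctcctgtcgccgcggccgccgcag
Dlg5: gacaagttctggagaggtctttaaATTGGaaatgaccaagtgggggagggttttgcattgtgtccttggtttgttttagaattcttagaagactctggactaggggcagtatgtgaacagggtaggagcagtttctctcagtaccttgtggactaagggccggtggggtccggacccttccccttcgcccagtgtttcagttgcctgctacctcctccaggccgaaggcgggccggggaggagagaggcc
The Gria2 window held none of the 5 motifs. The Dlg4 window held an NRF-1 site that shares 1 base with a GC box on the other strand, and the Dlg5 window held 1 CCAAT box in reverse. NRF-1 sites occurred in 3.74% of all 32841 promoters of the table and in 2 of 34 promoters of member genes, those of Dlg4 and Dlgap4. GC boxes occurred in 32.7% of all promoters and in 13 of the 34, and CCAAT boxes in 33.9% and in 10 of the 34. CREs occurred in 1.55% of all promoters and in 0 of the 34, and E-boxes in 13% and in 5 of the 34. The 3 windows had no searched motif in common, and their GC content was 64.8% for Gria2, 56.8% for Dlg4 and 54.4% for Dlg5, with a median of 52.4% over all promoters. The table had promoters for 21 of the 26 genes.

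Gria2 encodes GluA2, the subunit that keeps calcium out of AMPA receptor channels. On probe set 1453098_at its signal was 377, 394 and 354 on WT arrays 1 to 3, 304, 470 and 439 on the HZ arrays and 709, 799 and 498 on the KO arrays. Every KO array lay above every WT and HZ array, and WT and HZ overlapped. The mean was 375 ± 20.1 (SD, n = 3) in WT, 404 ± 88.2 in HZ and 669 ± 154 in KO. KO was 1.72-fold above WT, a log2 difference of 0.78 ± 0.21 (SE; 95% interval 0.33 to 1.23; limma adjusted p = 0.460).

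The other Gria2 probe set, 1421970_a_at, read 1204, 647 and 934 in WT, 809, 725 and 909 in HZ and 882, 999 and 965 in KO. Its WT arrays spanned both other genotypes, and its log2 difference between KO and WT was 0.07 (95% interval -0.37 to 0.51). The log2 ratio of the probe sets on each array, 1453098_at over 1421970_a_at, was -1.64, -0.69 and -1.36 in WT, -1.37, -0.61 and -1.02 in HZ and -0.31, -0.32 and -0.93 in KO. WT 2 and KO 3 overlapped in this ratio, where KO and WT differed by 0.71 (2-sided exact permutation p = 0.2, adjusted p = 0.36 over 9 comparisons of 3 genes). The sources used here do not say which part of the transcript each probe set reads.

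Gria1 encodes GluA1, the subunit whose insertion at synapses depends on activity. Its probe set 1448972_at read 638, 731 and 619 in WT, 610, 777 and 718 in HZ and 744, 908 and 805 in KO. The KO arrays lay above all WT arrays, the closest being KO 1 and WT 2, and the difference was 1.23-fold (log2 0.30 ± 0.16, SE; 95% interval -0.05 to 0.64; limma adjusted p = 0.679). The second Gria1 probe set, 1435239_at, read 721, 730 and 568 in WT and 751, 779 and 729 in KO, where KO 3 fell just below WT 2, with a log2 difference of 0.17. Gria3 and Gria4, the remaining AMPA subunits, differed by 0.09 and 0.13 on the log2 scale, so that all 6 AMPA receptor probe sets lay between 0.07 and 0.78 in KO against WT. Gria3 ranged from 155 to 290 and Gria4 from 131 to 185 over the 9 arrays. None passed after adjustment.

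Kainate receptors were read by Grik1 and Grik5. Grik1, which encodes the GluK1 subunit, read 377, 582 and 490 in WT, 466, 226 and 362 in HZ and 541, 868 and 371 in KO. The 3 genotypes overlapped, and KO 2 was the highest and HZ 2 the lowest array. The difference between KO and WT was 0.23 ± 0.30 (log2, SE, limma adjusted p = 0.882). Grik5, the GluK5 subunit that joins others in the receptor, varied most within genotypes, from 63.5 to 273 in WT, 81.4 to 213 in HZ and 128 to 259 in KO (log2 difference 0.49 ± 0.44, SE, limma adjusted p = 0.812). On Grik5 the second array was the highest of each genotype. Grik2 and Grik3 had signals of 5.76 to 12.4 on every array.

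**Figure D2:**
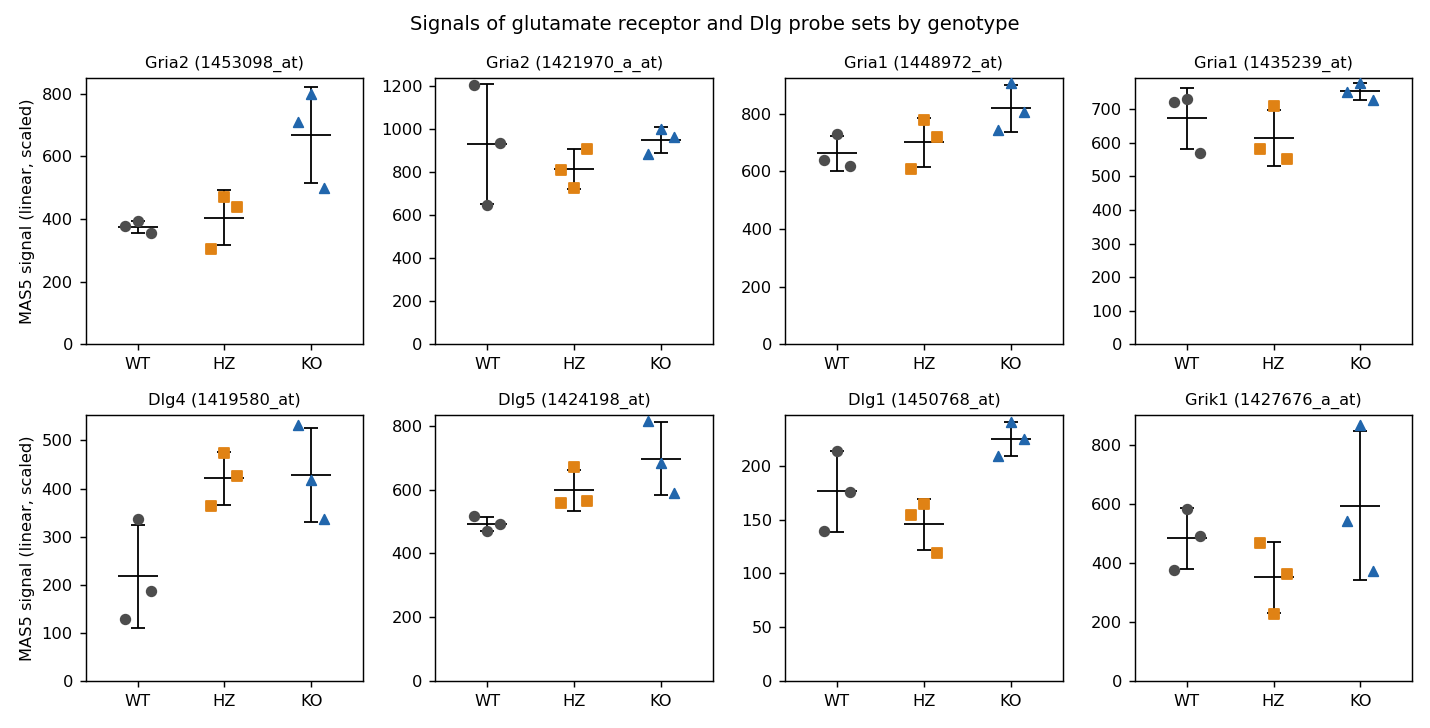
MAS5 signal of 8 member probe sets by genotype, on linear axes from 0. Points are single arrays, horizontal bars the mean and whiskers the SD of 3 arrays. The 3 KO arrays lie above all WT arrays for Gria2 on 1453098_at, Gria1 on 1448972_at and Dlg5, and above all HZ arrays for Dlg1 on 1450768_at.

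Among the scaffolds, Dlg4 encodes PSD-95, the main organizer of the postsynaptic density. Probe set 1419580_at read 128, 337 and 187 in WT, 364, 474 and 426 in HZ and 532, 418 and 337 in KO. All HZ arrays lay above all WT arrays, whereas KO 3, at 337.1, fell just below WT 2, at 337.2. KO was 2.01-fold above WT (log2 1.01 ± 0.28, SE; 95% interval 0.40 to 1.61; limma adjusted p = 0.460) and HZ 2.00-fold (log2 0.998, limma adjusted p = 0.789). These comparisons share the WT arrays. Among them WT 2 was the highest and WT 1 the lowest, and the KO difference was 1.36 without WT 2 and 0.71 without WT 1. The other 2 Dlg4 probe sets, 1419581_at and 1460261_at, were dim, at 17.9 to 145. With no filter their log2 differences were 0.16 and -0.62 between KO and WT, and -0.24 and 0.15 between HZ and WT.

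Dlg5 is a relative of the synaptic Dlg proteins known from cell polarity and cell contacts. It read 517, 472 and 491 in WT, 558, 672 and 563 in HZ and 817, 684 and 589 in KO. Both HZ and KO lay wholly above WT, with means of 493 ± 22.6 (SD, n = 3) in WT, 598 ± 64.7 in HZ and 697 ± 115 in KO. The KO difference was 1.39-fold (log2 0.47 ± 0.16, SE; 95% interval 0.12 to 0.83; limma adjusted p = 0.534). Dlg3 (SAP102), the family member that serves young synapses early in development, read 1070, 725 and 1165 in WT and 879, 666 and 1034 in KO, a log2 difference of -0.19 that lay within the spread of WT (95% interval -0.65 to 0.27).

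Dlg1 (SAP97), which binds the tail of GluA1, had 2 tested probe sets. The bright one, 1415691_at, read 1209 to 1666 over the 9 arrays, with a log2 difference of -0.03 in KO against WT (95% interval -0.37 to 0.30). The dimmer one, 1450768_at, read 139, 214 and 175 in WT, 154, 164 and 119 in HZ and 209, 241 and 225 in KO. Its KO arrays lay above all HZ arrays, and KO 1 fell below WT 2 (log2 difference 0.34 in KO against WT, 0.58 in KO against HZ). The ratio of the probe sets was higher on every KO array than on every HZ array, by 0.62 on the log2 scale (2-sided exact permutation p = 0.1, the smallest possible, adjusted p = 0.36 over 9 comparisons). Dlg2 (PSD-93) was read only by dim probe sets, at 68.3 to 200 on single arrays.

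Dlgap, Shank and Homer proteins, the deeper layers of the scaffold, had no member bright enough to test with an unadjusted limma p below 0.05 in any of the 3 comparisons. Dlgap4, a linker between Dlg and Shank proteins, read 1234, 2002 and 1412 in WT, 1424, 1595 and 1310 in HZ and 1577, 1539 and 1316 in KO (log2 difference between KO and WT -0.04, 95% interval -0.44 to 0.35). Shank3, a large scaffold at the base of the postsynaptic density, read 564, 758 and 718 in WT, 682, 624 and 890 in HZ and 668.5, 578 and 548 in KO (-0.18, 95% interval -0.57 to 0.22). Homer2 read 997, 1139 and 822 in WT, 936, 913 and 993 in HZ and 928, 957 and 903 in KO (-0.07, 95% interval -0.40 to 0.26). In each of these the genotypes overlapped, and the WT arrays of Dlgap4 and Homer2 spread more widely than those of KO. Homer3 read 255 to 331 over all arrays, with a log2 difference of 0.00 (95% interval -0.37 to 0.36). Homer1 was dim on all 3 of its probe sets, at 2.12 to 67.9.

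Of the neuroligins, Nlgn2, which serves inhibitory synapses, was the brightest probe set of its family. It read 1753, 2435 and 1711 in WT, 2083, 3052 and 2278 in HZ and 2621, 2309 and 1782 in KO, with the genotypes overlapping. The log2 difference was 0.19 in KO against WT (95% interval -0.24 to 0.61) and 0.33 in HZ against WT (-0.10 to 0.75). Nlgn1, the neuroligin of excitatory synapses, was dim, at 26.1 to 128.

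Dim members were fitted without the filter, and none passed (limma, smallest adjusted p = 0.686 in KO against WT). Grin2c, an NMDA receptor subunit known best from the cerebellum, read 28.3, 36.6 and 29.3 in WT, 71.6, 59.1 and 37.1 in HZ and 92.6, 69.7 and 34.6 in KO. The HZ arrays lay above all WT arrays and KO 3 did not, and the log2 difference between KO and WT was 0.72 (limma adjusted p = 0.686, no filter). Dlgap5 matched the rule by its name but is a protein of the mitotic spindle. It read 64.1, 90.8 and 46.4 in WT, 89.9, 85.3 and 132 in HZ and 108, 114 and 96.6 in KO, all above WT (0.59, limma adjusted p = 0.688, no filter). Homer1 on 1421768_a_at, which encodes a scaffold with an activity-induced short form, read 67.9, 44.3 and 66.3 in WT, 6.51, 12.02 and 60.05 in HZ and 35.9, 20.9 and 52.6 in KO. HZ 1 and HZ 2 were the lowest arrays, HZ 3 lay among WT, and the log2 difference between HZ and WT was -1.04 (limma adjusted p = 0.807, no filter). Over all 34 members, 5 were higher in KO against WT at an unadjusted p below 0.05 (14.7%, against 4.05% of all probe sets without the filter). KO lay wholly above WT in 4 (11.8%, against 7.73% of all probe sets without the filter) and wholly below in 1, Grik3 (2.94%, against 5.06%). Grik3 read 8.71, 8.81 and 9.68 in WT, 8.93, 5.76 and 7.95 in HZ and 8.45, 7.79 and 7.84 in KO, near the bottom of the scale.

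Between HZ and WT, Dlg4 was the 1 of 18 members with an unadjusted limma p below 0.05 (5.56%, against 4.06% of all probe sets tested that were higher), and 0 were lower (against 2.16%). The median log2 change of the members was 0.05, against 0.03 over all probe sets, and 11 were above 0 (61.1%, against 55.3%). The arrays of HZ lay wholly above WT for 3 members, Dlg4, Dlg5 and Gria4 (16.7%, against 8.51%), and wholly below for 0 (against 4.39%). Members wholly above numbered 2 with arrays set to 1 median (against 4.40%) and 3 with quantile normalization (against 6.79%). Gria4, the GluA4 subunit, read 136, 155 and 131 in WT and 169, 168 and 185 in HZ (log2 0.28, limma adjusted p = 0.803). No member passed after adjustment (limma, smallest adjusted p = 0.789), as no probe set did (0.00%). With HZ 2, the array of the high 3'/5' ratio, left out, Dlg4 was at 0.91 and the median of the members at -0.01.

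Between KO and HZ, which share their KO arrays with the comparison against WT, 3 of 18 members were higher at an unadjusted limma p below 0.05 (16.7%, against 3.96%) and 0 lower (against 3.76%). These were Gria2 on 1453098_at (log2 0.70 ± 0.21, SE, limma adjusted p = 0.441), Grik1 (0.70 ± 0.30, adjusted p = 0.622) and Dlg1 on 1450768_at (0.58 ± 0.20, adjusted p = 0.539). The members' median was 0.12, against -0.02 over all probe sets, with 11 above 0 (61.1%, against 46.6%). KO lay wholly above HZ for Gria2, Dlg1 and Gria1 on 1435239_at (16.7%, against 6.67%) and wholly below for 0 (against 7.35%). After adjustment 0 members passed, where Gap43 was the 1 probe set that did (0.00737%). Dlg4 overlapped between KO and HZ (log2 0.01, 95% interval -0.60 to 0.61). Without HZ 2 the Grik1 difference was 0.43, Gria2 stood at 0.82 and Dlg1 at 0.67, and Grik1 was no longer among the 3 members with an unadjusted limma p below 0.05, while Gria1 on 1435239_at was.

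**Figure D3:**
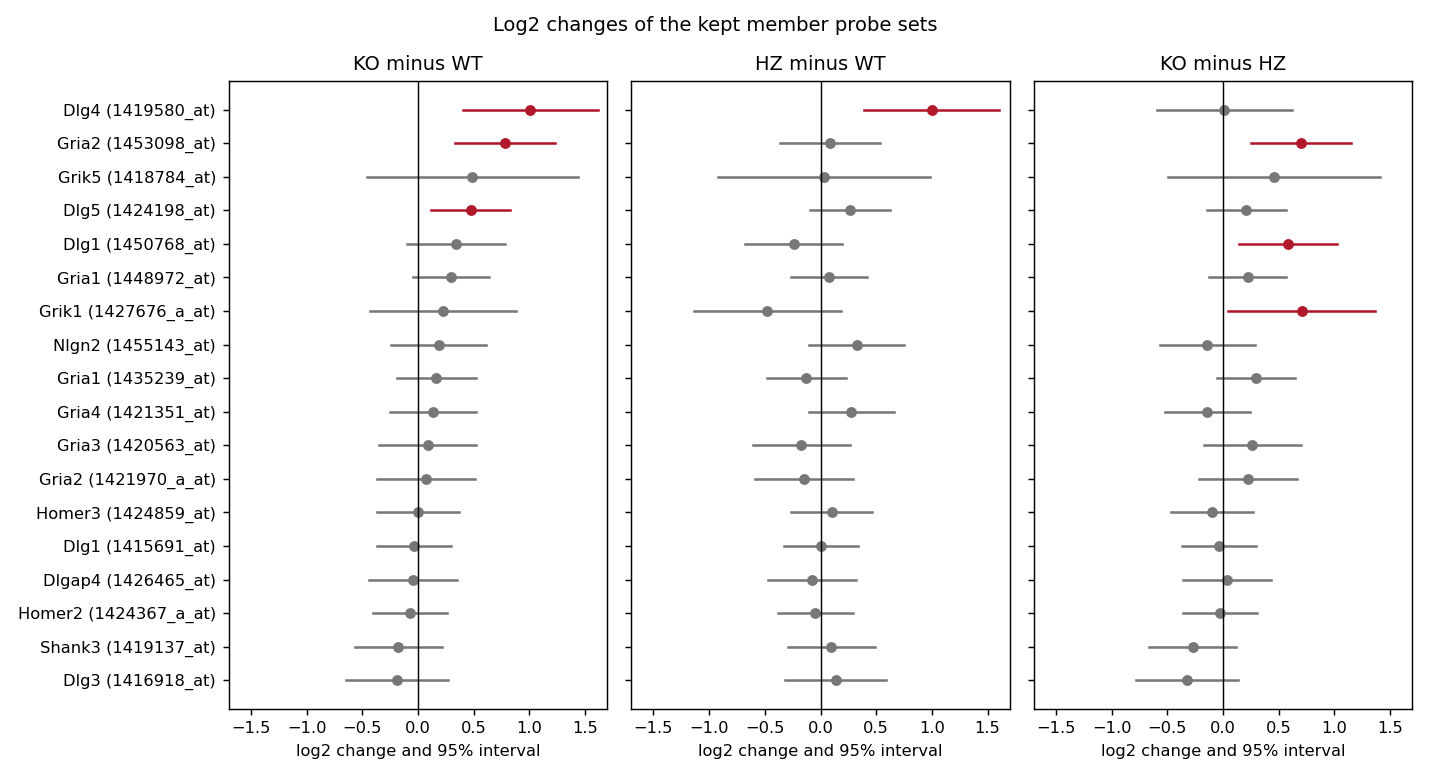
Log2 changes of the 18 tested member probe sets with 95% intervals from limma, for KO minus WT, HZ minus WT and KO minus HZ. Red marks an unadjusted p below 0.05, and no probe set shown passed after adjustment. Dlg4 is at 1.01 in KO and 0.998 in HZ against WT, whereas Gria2 on 1453098_at is at 0.78 in KO and 0.08 in HZ.

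With each of the 9 arrays left out in turn, the KO minus WT difference stayed between 0.64 and 0.98 for Gria2 on 1453098_at, 0.35 and 0.59 for Dlg5, 0.22 and 0.37 for Gria1 on 1448972_at and 0.71 and 1.36 for Dlg4. WT 2 had the highest 3'/5' ratio of the WT arrays, 15.5. Without it, 6 of 18 members were higher in KO at an unadjusted limma p below 0.05 (against 5.67% of all probe sets), now also Dlg1 on 1450768_at, Gria1 on 1448972_at and Grik5, and 9 lay wholly above WT (against 17.2% of all). When the fit also held the 3'/5' ratio, Gria2 was at 0.74, Dlg4 at 0.95 and Dlg5 at 0.45 in KO against WT. In that fit 3 members were higher as before (against 5.02% of all probe sets). Summed immature neuron markers were higher on every KO array than on every WT array, those of astrocytes overlapped where KO 2 exceeded WT 1, those of excitatory neurons overlapped too, and their part in the receptor and scaffold values was not tested.

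**Figure D4:**
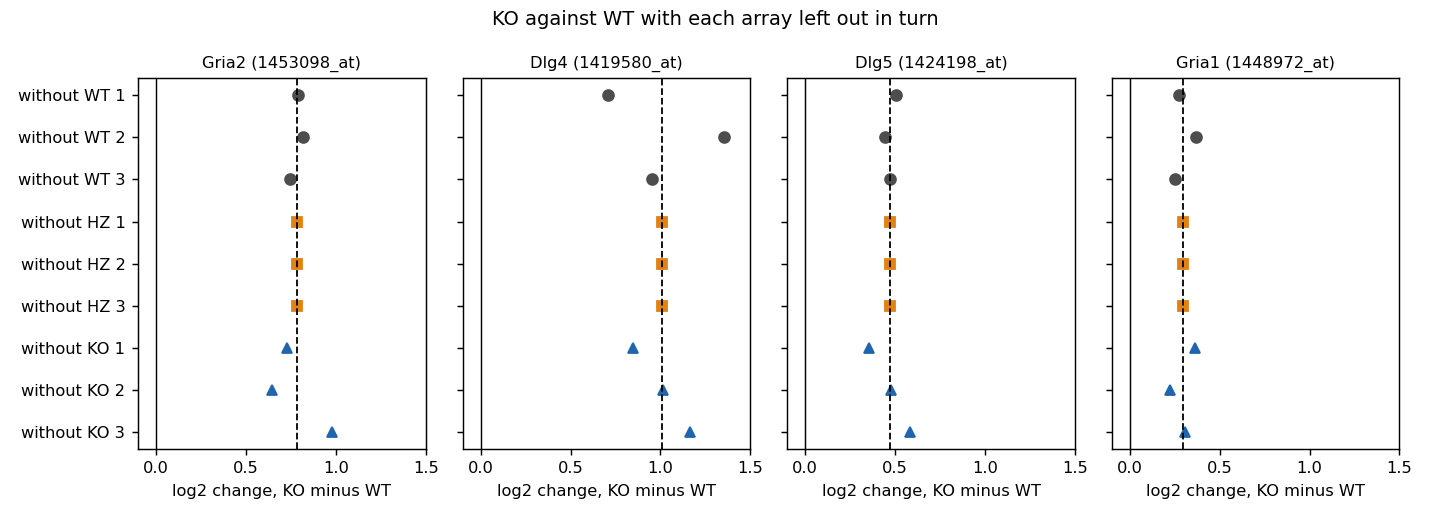
Log2 change of KO minus WT for 4 member probe sets when each of the 9 arrays is left out. The dashed line is the value over all arrays and the solid line is 0. All values stay above 0, and Dlg4 moves most, to 0.71 without WT 1 and to 1.36 without WT 2.

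Other proteins of the glutamate synapse were counted from 4 lists, of which 3 follow here. Of 18 proteins that accompany or traffic AMPA and kainate receptors 10 were tested, with 2 higher and 1 lower in KO against WT at an unadjusted limma p below 0.05 (against 4.43% and 3.59% of all probe sets) and a median of 0.04, against 0.02 over all. Cacng4, a transmembrane AMPA receptor regulatory protein, read 837, 679 and 664 in WT and 1046, 933 and 955 in KO (1.34-fold), all KO above all WT. The other higher one was Cacng3, of the same family, at 108, 104 and 77.6 in WT and 120, 158 and 142 in KO. Its WT mean, 96.3, lay below the lowest mean tested, so it was tested only through the genotypes where it is higher, and its values are a description. Cnih3, a cornichon protein that exports AMPA receptors from the endoplasmic reticulum, was lower, at 425, 502 and 423 in WT and 225, 299 and 411 in KO (log2 -0.54). Neither Cacng4 nor Cnih3 passed after adjustment (limma adjusted p = 0.610 and 0.557).

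Of 19 signalling proteins of the postsynaptic density 6 were tested, with 0 higher and 1 lower in KO against WT (against 4.43% and 3.59% of all probe sets) and a median of -0.07, against 0.02 over all. The lower one was Kalrn, an exchange factor of dendritic spines, at 536, 747 and 505 in WT and 511, 472 and 182 in KO, where only KO 3 stood far below the rest (log2 -0.70, limma adjusted p = 0.613). Camk2b, a subunit of the calcium and calmodulin dependent kinase, read 1614, 1696 and 1787 in WT and 2451, 2159 and 1843 in KO, all KO above WT (log2 0.33, limma adjusted p = 0.623). Camk2g, another subunit, read 2047, 2154 and 1914 in WT and 2081, 1846 and 1660 in KO, which overlapped (log2 -0.13, and 0.09 on its other probe set). Of 23 adhesion partners 11 were tested, with 0 past that threshold in either direction in KO against WT (against 4.43% and 3.59% of all probe sets). Their median was 0.12 in KO against WT (against 0.02 over all) and 0.15 in HZ against WT (against 0.03). The adhesion partners of smallest p in KO against WT were Ptprs, Cadm1 and Ptprd. Ptprs and Ptprd, receptor phosphatases that bind postsynaptic partners, were at 0.40 and 0.21 on the log2 scale. The adhesion molecule Cadm1 was at 0.30, and all 3 tested probe sets of Cadm1 and of Ptprd were above 0.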

How the data were processed

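Expression was measured on 9 Affymetrix arrays, 1 per mouse, 3 each of WT, HZ and KO. The deposited values are linear intensities that the authors computed with MAS5 in Expression Console (Affymetrix), as the submitters' processing notes say. The sources used here give no version, scaling target or genome build. The mean of each array without the highest and lowest 2% was 500.2, so the authors' intensities share 1 scale. Control probe sets (64 of 22690) were left out, log2(signal + 16) was taken, and the brightest 60% by mean log2 value were kept (13576). Fold changes are on that log2 scale and understate those of dim probe sets. Genotype was fitted in limma 3.58.1 (R 4.3.3) over the 9 arrays together (eBayes with trend, 6 residual and 6.94 prior degrees of freedom), with Benjamini-Hochberg adjustment, threshold 0.05, 2-sided tests. The fit was tested on simulated data. The number of arrays limits the precision. Members and lists were chosen with earlier results of these data known.

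Probe sets were named from the platform annotation. All 26 member genes matched RefSeq (GRCm38.p6) by Entrez identifier. Values on all arrays are given for tested members with an unadjusted p under 0.05 in any comparison, for members with no overlap in KO against WT, and for the tested member of smallest p in other families; list genes are the 3 of smallest p in KO against WT, read on the brightest probe set. Gria4, Dlg3, the other probe sets of Gria1 and Gria2 and the dim members Grin2c and Homer1 were given by array after their values were seen. Alternatives covered the pseudocount, filter, scaling, trend, array weights, 3'/5' ratio, replicate block, arrays fitted and each array left out.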

Additional observations from a re-analysis of the deposited data

How the results depend on the processing

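None of the 18 tested members passed after adjustment under any of 20 alternatives (limma, smallest adjusted p = 0.131, Dlg4 in KO against WT with array weights). For Dlg1 on 1450768_at, Dlg4, Dlg5, Gria1 on 1448972_at, Gria2 on 1453098_at, Grik1, Dlgap4, Homer2, Nlgn2 and Shank3 the sign changed in 22 of 597 values, all of members within 0.23 of 0 on the log2 scale. Median log2 changes of the members with 1 array left out ranged from 0.09 to 0.21 in KO against WT, -0.01 to 0.12 in HZ against WT and 0.02 to 0.15 in KO against HZ. Without the filter, 5 members were higher at an unadjusted p below 0.05 in KO against WT (4.05% of all). At that threshold 1 was lower in HZ against WT (2.01% of all). Wholly below lay 1 member in KO against WT (5.06% of all) and 1 in KO against HZ (7.18% of all). Without the filter 0 probe sets passed in KO against WT or KO against HZ (Gap43 log2 -1.95 and -1.82, limma adjusted p = 0.204 and 0.287). With array weights 5 probe sets passed in KO against WT and 3 in HZ against WT, with 5 and 3 members higher at an unadjusted p below 0.05 (against 6.64% and 9.37% of all probe sets). In KO against HZ 0 passed with arrays set to 1 median (Gap43 -1.79) or quantile normalization (-1.84), and 3 when the fit held the 3'/5' ratio. With no trend, or with the arrays of the compared genotypes alone, 0 passed in KO against WT and in KO against HZ (Gap43 -1.95 and -1.82). With each array left out in turn, probe sets past adjustment numbered 0 to 2 in each comparison, and Gap43 ranged from -2.20 to -1.72, -0.27 to 0.09 and -2.08 to -1.59 in KO against WT, HZ against WT and KO against HZ. Members higher at an unadjusted p below 0.05 numbered 2 to 6, 1 to 2 and 1 to 3 in the same order (2.63% to 5.67%, 2.50% to 5.15% and 2.82% to 4.68% of all probe sets). Lower members numbered 0, 0 to 1 and 0 (2.41% to 4.81%, 1.9% to 3.2% and 2.55% to 4.35% of all). Members wholly above numbered 3 to 9, 3 to 4 and 3 to 6 (7.82% to 17.2%, 8.49% to 18.5% and 6.65% to 11.9% of all), and wholly below 0 to 1, 0 to 2 and 0 to 2 (5.80% to 13.1%, 4.38% to 11.6% and 7.33% to 15.9% of all). Single arrays moved these counts by over 1.5 times: in KO against WT 5 members lay wholly above without KO 3 (14.0% of all), in HZ against WT 2 were higher without WT 2 (5.15%), and in KO against HZ 1 was higher without HZ 3 (3.63%) while 5 lay wholly above without KO 1 or KO 3 (11.5% each) and 6 without HZ 2 (11.9%). Setting arrays to 1 median moved the split of all probe sets at an unadjusted p below 0.05 to 1.61% higher and 5.33% lower in HZ against WT and 5.05% and 2.77% in KO against HZ. The causes were not tested. Arrays share replicate numbers, and the labels do not say whether these pair them. Deviations of same-numbered arrays correlated at -0.255 to 0.111, and 7 of 18 arrays by genotype correlated best with their own number. The 3'/5' ratio was highest on array 2 of each genotype (15.5 on WT 2, 26.4 on HZ 2 and 14.5 on KO 2). Whether same-numbered arrays share a litter or a run was not tested. With the replicate block 2 probe sets passed in KO against HZ, in place of 1, and Gap43 stayed past the threshold (limma adjusted p = 0.0489 and 0.0472). With that block 3 members were higher in KO against WT at an unadjusted p below 0.05 (4.03% of all). Signals near background limit Grin, Grm8, Homer1, Nlgn1 and Dlg2.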

Other observations

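Genes that supply and clear glutamate were also read in these arrays. Of 8 such genes 4 were tested, with 0 higher and 2 lower in KO against WT at an unadjusted limma p below 0.05 (against 4.43% and 3.59% of all probe sets) and a median log2 change of -0.28, against 0.02 over all. The lower genes, Slc1a3 and Glul, are also in the astrocyte marker list, of which 5 of 8 tested genes were lower at that threshold, and the part of astrocyte content in these values was not tested. Slc1a3, the astrocyte glutamate transporter GLAST, read 1251, 1614 and 1359 in WT, 1225, 1178 and 1161 in HZ and 1049, 1216 and 961 in KO. Both KO (log2 -0.38, limma adjusted p = 0.576) and HZ (-0.24, adjusted p = 0.803) lay wholly below WT. Its other probe set differed from WT by -0.04 in KO and -0.12 in HZ. Glul, the glutamine synthetase of astrocytes, read 4766, 6413 and 5312 in WT, 3715, 3751 and 4232 in HZ and 3648, 5186 and 3884 in KO. KO 2 overlapped WT (KO log2 -0.38, limma adjusted p = 0.584), whereas HZ lay wholly below WT (-0.49, limma adjusted p = 0.790). The other Glul probe set differed from WT by -0.44 in KO and -0.25 in HZ. Slc17a6, the vesicular glutamate transporter VGLUT2, overlapped between genotypes (log2 -0.19 in KO against WT, and -0.40 on its other probe set).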
